A study of Triticum polonicum with 10 samples.

Results

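How roots of dwarf Polish wheat respond to cadmium when no iron salt is added was measured in 2 of the 10 RNA-seq libraries of the series: a control that received neither iron salt nor cadmium (coded ACK) and a library from seedlings given 80 µM CdCl2 alone (ACd). Dwarf Polish wheat (Triticum polonicum) is a tetraploid wheat with A and B subgenomes. The seedlings were 4 weeks old and were treated for 1 week. Below, without iron means only that no iron salt was added, since the labels do not give the iron content of the medium. All libraries were made from whole root RNA, so fewer cells of a type and less RNA per cell cannot be told apart. The other 8 libraries served as a reference for the level of each gene. They came from roots fed FeCl3 at 50 or 200 µM without cadmium (A50CK, A200CK) or with 80 µM CdCl2 (A50Cd, A200Cd), from roots fed 200 µM Fe2(SO4)3 without cadmium (B200CK), and from 3 further sulfate-fed libraries (B50CK, B50Cd, B200Cd). In those 3 the title code and the treatment text disagree, on dose and cadmium for B50CK, on cadmium for B50Cd and on dose for B200Cd, so they are named by code and were used only as reference values.

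Cadmium is not a nutrient. In plants generally it enters roots largely through transporters for iron, zinc and manganese, is bound by thiol peptides made from glutathione, and is stored in vacuoles. Grasses take up ferric iron by secreting chelators and reabsorbing the iron complex, so iron supply and cadmium uptake are commonly studied together. The gene IDs of this series were not paired with names in the sources used here. The genes below are therefore described by their levels, their behaviour across libraries and the chromosome in the ID, and no function is given to any of them. For the same reason root marker genes could not be used to check the tissue.

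The pair rests on 1 library each, with no replicate check. Total counts were 13635628 in the control and 19320820 in the cadmium library, against 13997374 to 18184796 in the other 8. Intervals given below are exact 95% intervals that cover counting error only. The design text speaks of 3 biological replicates per treatment, and the sources used here do not say whether a library pools them.

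The cadmium library differed from the control at many genes in both directions. Genes entered with a mean of 5 or more counts per 1000000 (CPM) over the 10 libraries. Of these 25616 genes, 1325 (5.17%) were at least 4-fold higher in the cadmium library and 1101 (4.30%) at least 4-fold lower, on the log2(CPM + 0.5) scale. At 2-fold the numbers were 4899 (19.1%) and 3108 (12.1%). The higher genes had a median of 2.93 CPM in the control and 26.4 CPM in the cadmium library, and the lower genes 47.7 and 5.69 CPM. For all 1325 and all 1101 genes the whole counting interval of the ratio lay beyond 2-fold. The 4-fold limit largely ensures this at the depth of these libraries, so it is no separate check. For 1047 of the higher and 897 of the lower genes the interval lay beyond 4-fold. Counting error was small beside these differences, while the spread between plants was not measured for either treatment. The split depended on scaling. The median log2 fold of all genes was 0.20 with library totals, while TMM scaling lowers the log2 ratio of CPM by 0.22 and DESeq2 size factors by 0.29 (less for genes near the pseudocount). Higher genes made up 54.6% of those 4-fold apart with library totals, 44.0% with TMM and 40.2% with DESeq2 size factors.

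**Figure D1:**
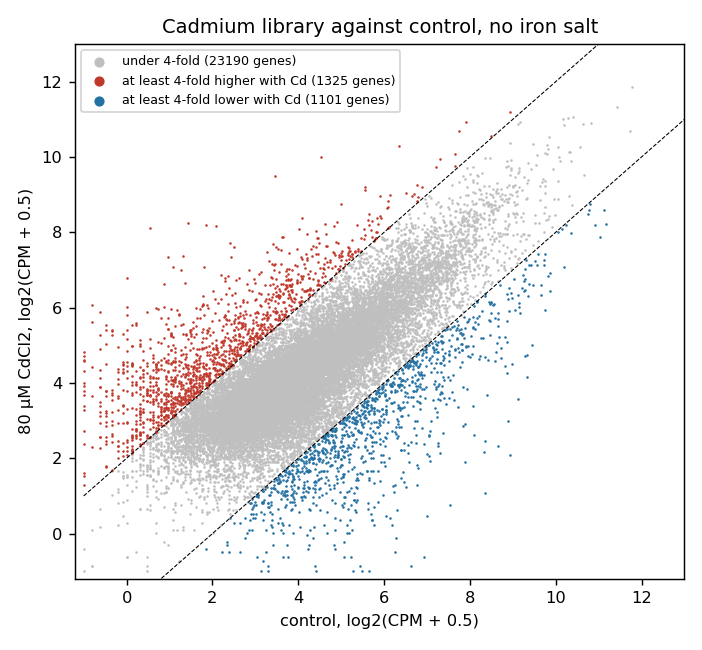
Level of each of 25616 genes in the control (horizontal axis) and the cadmium library (vertical axis), both without iron salt, in log2(CPM + 0.5). Dashed lines mark 4-fold; 1325 genes lie on or above the upper line and 1101 on or below the lower one.

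The same contrast at 2 iron supplies gave fewer such genes. In the pair fed 50 µM FeCl3, the cadmium library exceeded its partner 4-fold or more at 1.76% of genes and fell short of it by as much at 1.20%, and at 200 µM the shares were 2.97% and 0.804%. Over the 45 possible pairs of libraries, the share of genes 4-fold apart ranged from 0.426% to 12.8% with a median of 3.37%. The control and the cadmium library were 4-fold apart at 9.47% of genes, the 6th highest of these pairs. Against the other 8 libraries, the control was 4-fold apart at 5.92% to 12.8% of genes and the cadmium library at 2.02% to 6.73%. From iron-fed libraries without cadmium, the control was 4-fold apart at 12.8% (B200CK), 9.76% (A200CK) and 6.60% (A50CK) of genes. Some libraries without cadmium were thus as far from the control as the cadmium library was. The control held the highest or lowest of the 10 levels for 45.3% of genes, the cadmium library for 24.6%, and each of the rest for 9.26% to 23.9%.

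Most of the genes higher with cadmium were low in the control rather than unusually high in the cadmium library. In all, the 1325 higher genes took 1.19% of the counts of the control, 8.54% of those of the cadmium library and 4.10% to 9.10% in the other 8, so only the control stood outside the rest. The control lay below the whole range of the other 8 libraries for 81.1% of them, against 26.7% of all genes. The cadmium library lay above that range for 30.0%, against 22.0% of all genes. Relative to the median of the other 8, the higher genes had a median log2 difference of -2.22 in the control and 0.58 in the cadmium library. The control was farther from that median than the cadmium library was for 1088 of the 1325 genes.

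The genes lower with cadmium departed in both libraries. The 1101 lower genes took 12.9% of the counts of the control and 1.84% of those of the cadmium library, against 2.81% to 6.46% in the other 8. The control lay above the range of the other 8 for 71.1% of them, against 23.2% of all genes, and the cadmium library below it for 46.9%, against 11.8% of all genes. Their median log2 difference from the median of the other 8 was 1.70 in the control and -1.07 in the cadmium library. Genes picked for a wide gap between a pair of libraries have 1 of them at an extreme more often than other genes do, so the shares of all genes are a reference and not a test. In addition, 102 of the 1101 lower genes had a mean under 5 CPM in the other 8 and passed the filter only through the pair. Those 102 entered mainly because the control was high, which favours a control above the range. The values given here for the lower genes include them, and the shares without them were not computed.

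Combining both libraries, 787 of the higher genes (59.4%) had only the control outside the range of the other 8, 127 (9.58%) only the cadmium library, and 270 (20.4%) both on opposite sides. For the lower genes these numbers were 471 (42.8%), 213 (19.3%) and 299 (27.2%). Over all genes the shares were 30.9%, 14.8% and 5.21%. The share with only the cadmium library outside depended on the settings: 9.58% became 15.6% with a mean of 1 CPM and 3.85% when outside meant by at least 2-fold, where 19.3% became 12.3%. For genes with only the control outside, a difference that lies in that library and a cadmium effect only without iron salt cannot be told apart. This is because 1 library represents the control. Genes with only the cadmium library outside have the same limit, since it too is 1 library. The other 8 libraries were all iron-fed and both libraries of the pair were not. An effect of lacking iron salt that differs with cadmium therefore cannot be told apart from these either. Both libraries lay outside on the same side for 1.43% of the higher and 1.54% of the lower genes, against 13.7% of all genes. Choosing genes far apart in the pair disfavours that class, so its low share is no test.

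**Figure D2:**
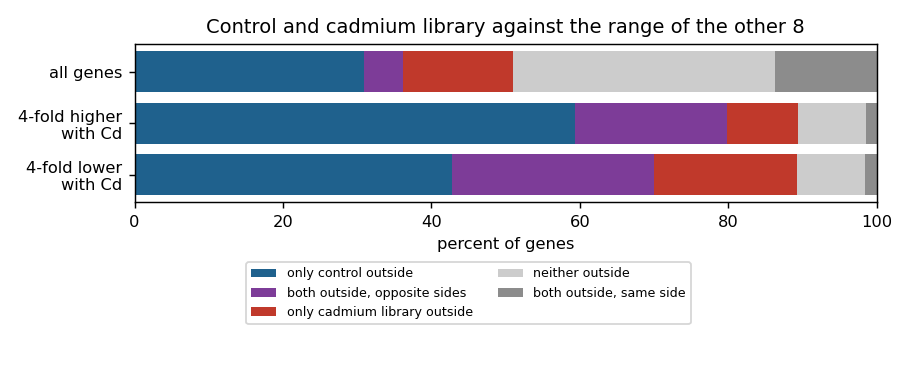
Percent of genes (horizontal axis) by whether the control, the cadmium library, both or neither fell outside the range of the other 8 libraries, for all 25616 genes, the 1325 higher and the 1101 lower genes. Blue, control alone, is the widest class among the higher (59.4%) and the lower genes (42.8%).

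Set against other libraries, each library of the pair kept a different share of these genes. When the control was replaced by the median of the 3 iron-fed libraries without cadmium whose labels match, 266 of the 1325 higher genes (20.1%) and 284 of the 1101 lower genes (25.8%) were still at least 4-fold apart the same way. When the cadmium library was replaced by the median of the 2 FeCl3 libraries with cadmium, 976 higher (73.7%) and 469 lower genes (42.6%) were. In the first of these comparisons 1.97% and 2.23% of all genes were 4-fold higher and lower, and in the second 6.73% and 3.22%. The genes were chosen from the pair, and each comparison reuses a library of that pair, so part of the sharing is built in. The replacements also differ, a median of 3 libraries fed chloride or sulfate against a median of 2 FeCl3 libraries. The shares are therefore a description only, and which library the differences lie in was not tested.

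Among genes with only the cadmium library outside, the widest folds upward belonged to an ID of chromosome 2B and to one of 3A. TraesCS2B01G471600 had 0.147 CPM (2 counts) in the control against 58.9 CPM in the cadmium library, a ratio of 402 (111 to 3320). In the other 8 libraries it ranged from 0 to 5.87 CPM with a median of 0.606 and a mean of 1.44 CPM, and it passed the filter of 5 CPM only through the cadmium library. TraesCS3A01G416800 had 10.5 CPM (8.84 to 12.4) in the control against 720 CPM (708 to 732) in the cadmium library. It lay at 27.7 and 27.1 CPM in the FeCl3 libraries without cadmium and at 287.0 and 286.8 CPM in those with it, so it was higher with cadmium at every chloride supply and highest without iron.

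On the lower side of the same class stood TraesCS4A01G404100 and TraesCS7B01G375600. The first was at 91.0 CPM (86.0 to 96.2) in the control, at 1.86 CPM (1.31 to 2.58) in the cadmium library and at 25.2 to 94.9 CPM, median 45.5, in the other 8. Its level in the cadmium library was thus far under every other library, and in the FeCl3 pairs its log2 folds with cadmium were 0.38 at 50 µM and 0.24 at 200 µM. TraesCS7B01G375600 had 20.4 CPM in the control against 0.0518 CPM (1 count) in the cadmium library, a ratio of control to cadmium of 394 (70.1 to 15614). It was also lower with cadmium at both FeCl3 doses, from 23.9 to 7.29 CPM and from 20.6 to 4.65 CPM.

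Where only the control stood outside, the widest folds upward came from an LC ID of chromosome 3B and an ID of 5A (LC is a suffix in the ID). TraesCS3B01G203300LC was at 3.08 CPM (2.22 to 4.16) in the control and 293 CPM (285 to 300) in the cadmium library, with 3.78 to 613 CPM in the other 8. Its lowest reference level, in the sulfate library without cadmium, lies within the counting interval of the control, so the control was hardly outside the range, and with FeCl3 it was higher with cadmium at both doses (log2 folds 1.96 and 3.88). TraesCS5A01G312000 was at 3.74 CPM (2.78 to 4.92) in the control, 287 CPM in the cadmium library and 68.9 to 291 CPM in the other 8. Here the control alone was low, and the FeCl3 pairs differed little (log2 folds 0.50 and 0.62).

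High only in the control were TraesCS3B01G730200LC and TraesCS1A01G391900. The first had 121 CPM in the control against 0.155 CPM (3 counts) in the cadmium library, a ratio of control to cadmium of 781 (267 to 3790), and 0 to 15.1 CPM elsewhere (median 2.49, mean 4.96), so that it passed the filter only through the control. The second was at 489 CPM (477 to 501) in the control, 3.78 CPM (2.96 to 4.75) in the cadmium library and 2.76 to 35.3 CPM elsewhere. The cadmium library was within the reference range for both, and the control exceeded its top by 8-fold or more.

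On the log2(CPM + 0.5) scale the widest fold upward of all tested genes, 7.56, belonged to TraesCS3B01G471700, singled out after its values were seen, for which both libraries were outside on opposite sides. It had 0.953 CPM (0.508 to 1.63) in the control against 274 CPM (267 to 282) in the cadmium library, and 8.66 to 90.2 CPM, median 16.5, in the other 8. The FeCl3 pairs disagreed on its direction, with log2 folds of -2.08 at 50 µM and 2.90 at 200 µM.

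**Figure D3:**
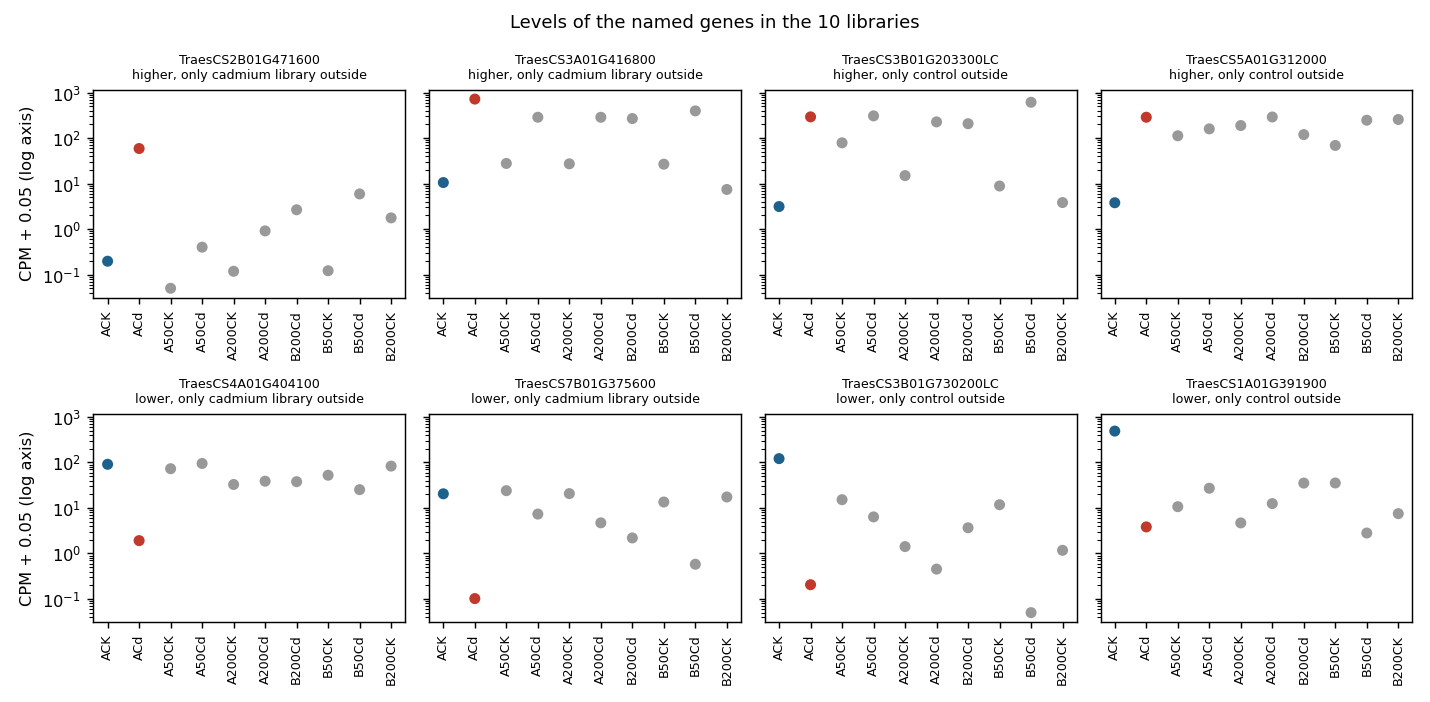
Level in CPM, with 0.05 added on a log axis, of the 8 genes named by class in each of the 10 libraries (horizontal axis, library codes). The control (ACK) is blue, the cadmium library (ACd) red and the other 8 grey; the blue point lies outside the grey ones in the panels titled only control outside (by little for TraesCS3B01G203300LC, 3.08 against 3.78 CPM), and the red point in the others.

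Abundant transcripts were among those that differed. TraesCS4B01G142200, the 4th most abundant tested gene by mean FPKM (CPM per kilobase of gene length), was at 934 FPKM in the control and 7240 FPKM in the cadmium library, a ratio of 7.75 (7.46 to 8.05). In the FeCl3 libraries it was at 1302 and 1116 FPKM without cadmium and at 12236 and 11100 FPKM with it. Neither library of the pair was outside the range of the other 8, and cadmium libraries of all 3 supplies were above their partners. The most abundant of the lower genes, TraesCS4A01G033600, was at 3228 FPKM in the control and 680 FPKM in the cadmium library, a ratio of control to cadmium of 4.75 (4.62 to 4.88). It ranged from 790 to 2595 FPKM in the other 8, so both libraries of the pair were outside, on opposite sides. The FeCl3 pairs went the other way, with log2 folds of 0.51 at 50 µM and 1.04 at 200 µM.

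Some IDs had counts in only 1 library of the pair. Of all 274924 IDs, 61 had 0 counts in the control and at least 5 CPM in the cadmium library, which makes them at least 22.8-fold to 161-fold higher against a floor of 3 counts in the control. All 61 had a count in some other library, 35 of them in all 8, 13 reached the level of the cadmium library there and 3 stayed under 1 CPM in each of the 8. In the reverse direction 56 IDs had 0 counts in the cadmium library and at least 5 CPM in the control, at least 32.6-fold to 321-fold lower with cadmium. Of these, 16 had counts in all 8 other libraries, 9 reached the level of the control there and 14 stayed under 1 CPM in each of them. The widest were TraesCS3B01G597000, at 35.5 CPM in the cadmium library and at most 4.65 CPM in the other 8, and TraesCS5A01G460500, at 49.8 CPM in the control and at most 2.50 CPM in the other 8. Both were chosen after their values were seen.

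The FeCl3 pairs share no library with the pair without iron and were used to see which differences recurred. Of the 1325 higher genes, 330 (24.9%) were at least 2-fold higher with cadmium at both FeCl3 doses, against 4.22% of all genes, and 510 (38.5%) were under 2-fold apart at both. Of the 1101 lower genes, 120 (10.9%) were at least 2-fold lower at both doses, against 2.71% of all genes. Under 2-fold apart at both doses were 464 (42.1%) of the lower genes. The share under 2-fold apart at both was 70.6% over all genes, above those of the higher and the lower genes. With TMM scaling 33.1% of the higher and 7.78% of the lower genes recurred. The median log2 fold of the higher genes was 2.66 here, 0.61 at 50 µM and 0.87 at 200 µM, and that of the lower genes was -2.63, -0.41 and 0.16. Recurrence was seen in 43.3% of higher genes with only the cadmium library outside and in 20.2% of those with only the control outside. Where neither was outside it was 65.6%. For the lower genes these shares were 10.8%, 9.55% and 34.7%. Over all genes of these 3 classes, 3.42%, 4.00% and 6.09% were 2-fold higher, and 2.08%, 2.07% and 4.37% 2-fold lower, at both doses. The FeCl3 libraries are part of the reference range, so position and recurrence are not independent.

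Read the other way, genes found in the FeCl3 pairs mostly moved alike in the pair without iron. In both FeCl3 pairs 219 genes (0.855%) were 4-fold or more above, and 62 genes (0.242%) 4-fold or more below, the library without cadmium. Of the 219, 169 (77.2%) were at least 2-fold higher without iron and 114 (52.1%) at least 4-fold higher, while 10 (4.57%) were at least 2-fold lower. Over all genes these shares were 19.1%, 5.17% and 12.1%. Their median log2 fold was 2.11, against 0.20 over all genes. Of the 62, 37 (59.7%) were at least 2-fold lower without iron and 8 (12.9%) at least 2-fold higher, against 12.1% and 19.1% of all genes, with a median log2 fold of -1.71. With TMM scaling 156 and 42 genes of these lists were 2-fold apart the same way.

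The median level of the 219 genes was 21.0 CPM in the cadmium library, near the 26.3 and 23.0 CPM of the FeCl3 libraries with cadmium. It was 5.79 CPM in the control, above the 2.69 and 2.25 CPM of the FeCl3 libraries without cadmium, which were low by the choice of the genes, and above the 3.42 CPM of the sulfate library without cadmium, which the choice did not use. The 62 lower genes had medians of 16.6 CPM in the control and 6.37 CPM in the cadmium library, with 36.3 and 33.2 CPM in the FeCl3 libraries without cadmium and 12.3 CPM in the sulfate one. The levels in all 4 FeCl3 libraries are set by the choice of the genes, so the narrower gap without iron is a description only.

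**Figure D4:**
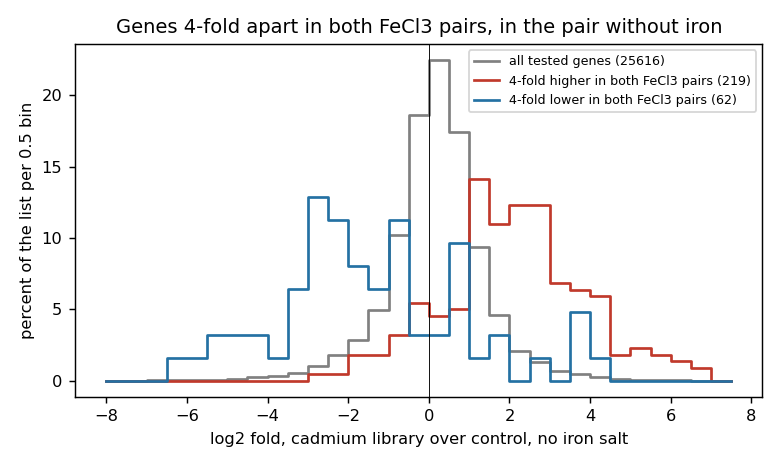
Log2 fold of the cadmium library over the control without iron (horizontal axis, bins of 0.5) for all 25616 genes, the 219 genes 4-fold higher and the 62 genes 4-fold lower with cadmium in both FeCl3 pairs, as percent of each list (vertical axis). The list medians are 2.11 and -1.71, against 0.20 for all genes.

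Genes 4-fold apart came from every chromosome of both subgenomes. On subgenome A 5.33% of genes were higher and 4.37% lower, and on subgenome B 5.20% and 4.23%. Single chromosomes ranged from 3.78% (4B, Wilson 95% interval 2.93% to 4.85%) to 6.06% (2B, 5.09% to 7.20%) for the higher genes and from 3.68% (6A, 2.81% to 4.81%) to 5.02% (7A, 4.08% to 6.18%) for the lower. These intervals treat genes as independent, while neighbouring IDs differed the same way more often than others. IDs assigned to subgenome D, absent from tetraploid wheats, had 6.32% higher and 7.49% lower genes of 427 tested, with intervals of 4.38% to 9.04% and 5.36% to 10.4%. Unplaced IDs had 8.94% higher (5.58% to 14.0%) and 9.50% lower genes (6.01% to 14.7%) of 179. IDs of the form Novel00213 had 2.71% higher and 2.56% lower genes of 1330, intervals 1.96% to 3.72% and 1.84% to 3.55%, both under the share of all genes.

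Neighbouring IDs tended to differ the same way. IDs are numbered along each chromosome, and of higher genes with a next tested ID on the chromosome, 13.9% were followed by another higher gene, against 5.28% of all tested genes. For the lower genes the shares were 14.2% and 4.35%. Reads from near-identical neighbouring copies may be shared between them, and the sources used here do not say how the counting treated such reads. Runs of at least 3 such neighbours numbered 27 among the higher and 17 among the lower genes.

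The longest run held 12 tested genes on chromosome 5B, from TraesCS5B01G489800 to TraesCS5B01G491300, all at least 4-fold higher with cadmium. Their summed level was 67.5 CPM in the control and 609 CPM in the cadmium library. It was 356 and 420 CPM in the FeCl3 libraries without cadmium, 704 and 658 CPM in those with it, 399 CPM in the sulfate library without cadmium, and 165, 695 and 443 CPM in the libraries coded B50CK, B50Cd and B200Cd. The control was below the range of the other 8 for 11 of the 12 genes and the cadmium library above it for 1. The median log2 fold of the run was 2.90, against 0.88 and 0.71 at 50 and 200 µM FeCl3.

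The next longest run by number and fold was 5 tested genes on chromosome 2A, from TraesCS2A01G541800 to TraesCS2A01G542400, all lower with cadmium. Runs on chromosomes 2B, 6B and 5A, all higher with cadmium, also held 5 genes each. The 2A run came first among these by its widest fold. The summed level of the 2A genes was 323 CPM in the control and 35.6 CPM in the cadmium library, against 92.9 to 502 CPM in the other 8. The cadmium library was below that range and the control inside it for each of the 5 genes. The FeCl3 pairs did not share the direction, with median log2 folds of 0.43 at 50 µM and 1.38 at 200 µM. The first gene had the widest fold, from 51.6 to 0.932 CPM.

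**Figure D5:**
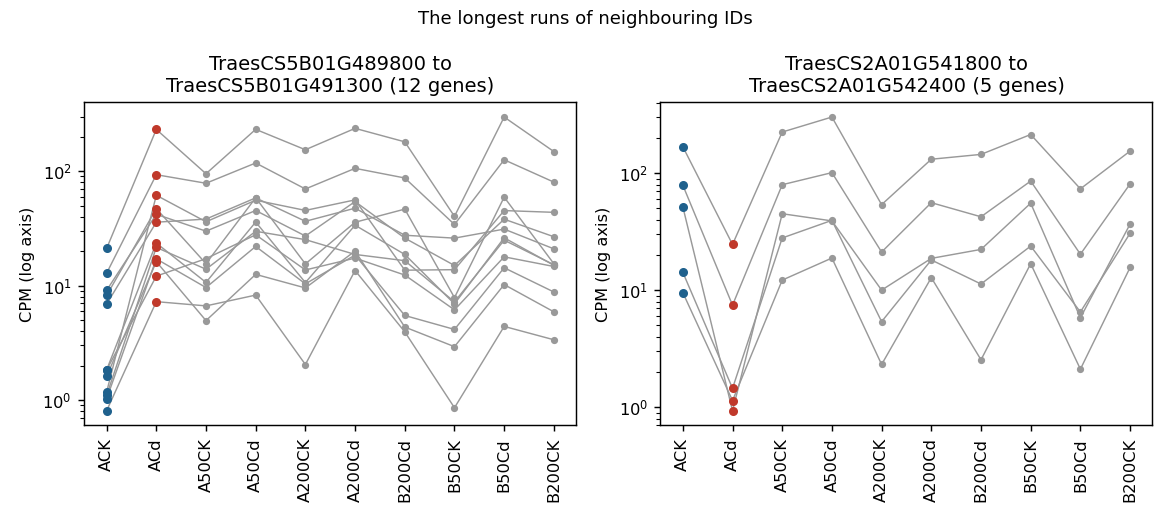
Level in CPM (log axis) of each gene of the 5B run (left, 12 genes) and the 2A run (right, 5 genes) in the 10 libraries (library codes; grey lines join the points of 1 gene). Blue points mark the control, low across the 5B run, and red points the cadmium library, the lowest library for every gene of the 2A run.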

How the data were processed

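Raw counts per gene ID and FPKM values were deposited by the authors, each with 1 column per library, and columns were matched to samples by title code. The submitters' processing notes name Bowtie2 2.0.6 together with TopHat2 2.0.12. The counter, genome build, strand setting and handling of multiply matching reads are not stated there. The deposited FPKM equal CPM per kilobase, which gives each gene's length. Counts were scaled to CPM by library total, and log2(CPM + 0.5) was compared for genes whose mean reached 5 CPM over 10 libraries. With 1 library per treatment no test was made. Ratios have exact conditional 95% intervals and levels exact Poisson ones, for counting error only. TMM factors came from edgeR 4.0.16 and size factors from DESeq2 1.42.0 (R 4.3.3), as scaling alternatives only; other calculations used Python 3.11.15, pandas 2.3.3 and scipy 1.17.1. The fold and interval code was tested on simulated data. Genes were named by a fixed rule: the 2 widest folds in each of 4 classes (direction, and which library alone was outside the other 8), the most abundant differing gene per direction, and the 2 longest runs. Runs tied in number were ordered by their widest fold. Members and lists were chosen with earlier results of these data known. Planned lists of metal-handling genes were not used here, as IDs have no names.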

Additional observations from a re-analysis of the deposited data

Results flagged for a closer look

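The cadmium difference without iron went against that in both FeCl3 pairs at some genes. Of the genes at least 4-fold lower with cadmium without iron, 57 (5.18%) were at least 2-fold higher with it at both FeCl3 doses, a share near the 4.22% of all genes. The control was outside the range of the other 8 libraries for 42 of them and the cadmium library for 16. Of all the lower genes, the control was above that range for 71.1% and the cadmium library below it for 46.9%. An example is TraesCS1A01G391900, with log2 folds of -6.84 without iron and 1.31 and 1.33 at 50 and 200 µM.

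Of the genes at least 4-fold higher without iron, 19 (1.43%) were at least 2-fold lower at both FeCl3 doses, against 2.71% of all genes. The control was outside the range for 17 of them and the cadmium library for 2. Of all the higher genes, the control was below the range for 81.1% and the cadmium library above it for 30.0%. TraesCS5A01G548200 had 11.9 CPM in the control against 235 CPM in the cadmium library, but 173 and 179 CPM without and 28.2 and 38.7 CPM with cadmium at 50 and 200 µM FeCl3. With 1 library per treatment these differences between iron supplies were not tested.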

How the results depend on the processing

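The 1325 higher and 1101 lower genes became 2350 and 1937 with a mean of 1 CPM, 2690 and 2265 without a filter, 4899 and 3108 at 2-fold, 447 and 370 at 8-fold, and 2689 and 2027 on the authors' FPKM with its own filter, which let 46207 genes in. On FPKM of the same 25616 genes, a setting added after seeing the data, there were 1287 and 1073. With the 3 iron-fed libraries in place of the control there were 504 and 570. TMM, DESeq2 size factors, other pseudocounts, a filter on the other 8 libraries and thinning kept both counts within 1.5 times. So did the FeCl3 cadmium libraries in place of the cadmium library. Asking for a counting interval beyond 2-fold left both counts unchanged, which the 4-fold limit largely ensures. Of the higher genes, the share with only the control outside (59.4%) was 65.3% with TMM, 50.0% with a mean of 1 CPM, 54.9% at 2-fold, 52.9% against the 5 libraries whose labels match and 52.1% when outside meant by 2-fold. The share with only the cadmium library outside (9.58%) was 15.6% with a mean of 1 CPM, 13.1% at 2-fold and 3.85% when outside meant by 2-fold. Of the lower genes, the share with only the control outside (42.8%) was 38.2% against those 5 libraries and 33.3% by 2-fold, and that with only the cadmium library outside (19.3%) was 12.3% by 2-fold. Leaving out each reference library in turn gave 55.8% to 59.5% and 8.15% to 11.4% for the higher genes (control alone, cadmium library alone), and 37.2% to 44.3% and 17.3% to 21.1% for the lower. Recurrence at both FeCl3 doses (24.9% of the higher and 10.9% of the lower genes) was 33.1% and 7.78% with TMM, and 8.60% and 2.54% at 4-fold. Fewer or more genes tested, or a wider or narrower limit, changes such counts by construction; for the other settings the cause was not tested. Genes just inside and just outside the 4-fold limit differed by little: the 26 genes nearest inside had absolute log2 folds up to 2.009 and the 13 nearest outside down to 1.990. All 12 named genes kept their direction and stayed 4-fold apart with TMM. The TMM shift of 0.22 in log2 was too small to bring any of them under 4-fold, so this is no separate check. No paired analysis was possible because the contrast described has 1 library per treatment and the labels give no replicate numbers; the pairs at other iron supplies are other treatments. Depth allowed levels down to 0.220 CPM in the control and 0.155 CPM in the cadmium library (3 counts).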

Other observations

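Genes higher with cadmium came from shorter gene models than the rest. Their median length, from the deposited counts and FPKM, was 984 bp (quartiles 615 and 1440 bp), against 1233 bp (783 and 1812 bp) for all 25616 genes and 1220 bp (846 and 1662 bp) for the lower genes. Their median level was 3.32 FPKM in the control and 31.3 FPKM in the cadmium library, against 44.2 and 5.27 FPKM for the lower genes.

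The share of genes 4-fold apart varied with level in the other 8 libraries. It was 4.43% higher and 3.78% lower for the 7857 genes at 5 to 10 CPM there, 4.83% and 3.82% for the 13091 at 10 to 50 CPM, 7.71% and 5.09% for the 3815 at 50 to 500 CPM, and 6.34% and 5.63% for the 142 at 500 CPM or more. A further 711 genes passed the filter only through the pair, which favours genes that differ, and held 42 of the higher and 102 of the lower genes.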
